A study of Mus musculus with 6 samples.

Results

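The annexins and the S100 proteins are the 2 gene families described here, as measured by RNA sequencing in differentiated C2C12 muscle cells with and without lenvatinib. Rows of the gene count table were taken by symbol, either Anxa followed by a number or S100 followed by a letter and an optional number. This gave 28 of 56792 rows, of which 12 are annexin and 16 are S100 genes, and 17 of the 28 had enough counts for a test. C2C12 is a wild-type mouse myoblast line that stops dividing and fuses into myotubes in low serum, and lenvatinib is an anticancer drug that inhibits receptor tyrosine kinases for vascular endothelial and fibroblast growth factors. In all 6 libraries the cells had differentiated for 4 days in medium with 2% horse serum. Cells of 3 libraries were treated with lenvatinib at 1 µM, and those of the other 3 were not. All libraries came from this single cell line. Separate cultures are not stated for the replicates, so p-values reflect the variation among these 6 libraries, possibly technical, and neither solvent for the untreated cells nor the time of drug addition is given.

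Annexins are soluble proteins that bind negatively charged phospholipids when calcium rises, and several of them gather at torn muscle membranes to close the tear. S100 proteins are small calcium sensors with paired EF-hand motifs. They act mostly as dimers that dock on target proteins, and several of those targets are the N-terminal tails of annexins. In muscle both families are known from membrane resealing, from calcium handling and as signals that damaged cells release.

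Library totals were 24566768 to 32406563 counts with lenvatinib and 25529288 to 28886472 counts without it. Levels within a gene are in CPM, from counts and scaled library totals, and as TPM where levels of different genes are compared. Each fold change, given in log2 units with its SE, divides lenvatinib by untreated, and adjusted p-values are those of edgeR's quasi-likelihood test over all 14989 rows tested. The 6 myotube markers checked summed to 12013 to 12222 CPM with lenvatinib and 11714 to 12099 CPM without it. With the drug 4 of them were higher (Myog, Myh3, Ckm, Mymk) and 2 lower (Des, Tnnt1). Among all rows with a mean of at least 50 CPM, as these have, 40.4% passed. Macrophage markers summed to 5.61 to 5.85 CPM with lenvatinib and 6.46 to 7.03 CPM without it, with 1 of 3 tested lower (Cd14) and Adgre1 and Fcgr1 at 0. Endothelial markers summed to 0.767 to 1.43 CPM with lenvatinib and 0.47 to 0.66 CPM without it, with Emcn at 0. Only Tek of these could be tested, and it did not pass (adjusted p = 0.0645). The labels name C2C12 cells alone, so the sums of these and later markers are given as transcript levels, not as shares of other cells. Their relation to the members' values was not tested. In such bulk samples fewer cells of a type and less RNA per cell cannot be told apart.

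Of the 17 tested members, 5 rose with lenvatinib, 4 fell with it, and the other 8 missed the threshold. Transcripts of Anxa3, Anxa2, S100a10, S100a11 and Anxa6 were higher, and those of Anxa1, Anxa8, Anxa11 and S100a13 were lower. Of all rows tested 28.2% passed, 13.3% higher and 14.9% lower. Among members with a mean of at least 50 CPM, 8 of 13 passed, against 40.4% of the 4507 table rows at such a level. By family, 3 of 10 tested annexins rose and 3 fell, and 2 of 7 tested S100 genes rose and 1 fell. The groups did not overlap in 11 tested members, 6 of them higher and 5 lower, against 40.1% of all rows tested. The changes were small: log2 fold changes of the members ran from -0.35 to 0.42 with a median of -0.06, beside a median of 0.0027 over all rows tested.

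**Figure D1:**
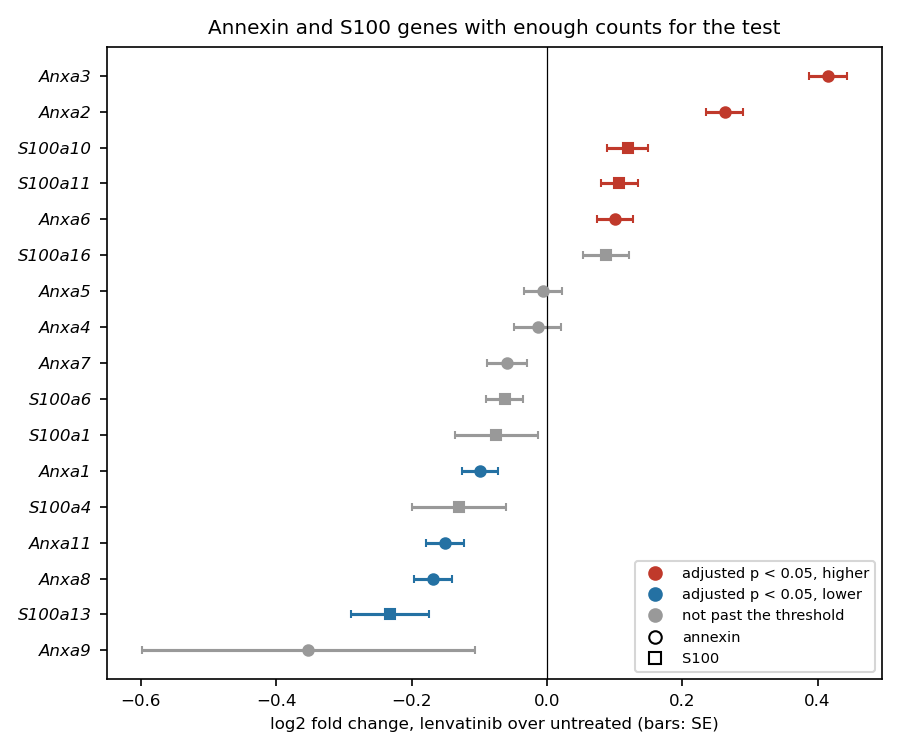
Log2 fold change, lenvatinib over untreated, of the 17 tested annexin (circles) and S100 (squares) genes, with the SE of the edgeR fit as bars. Members past an adjusted p of 0.05 are red where higher and blue where lower; Anxa3 (0.42) and Anxa2 (0.26) stand to the right of the other members, and the bar of Anxa9, with about 1 CPM, is the widest.

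Among the annexins that rose, Anxa3 changed most. Anxa3 encodes lipocortin III, known as an inhibitor of phospholipase A2 in vitro, and its row lies on chromosome 5 from 96941198 to 96993825 as deposited. It had 304, 298 and 310.3 CPM in the lenvatinib libraries, against 229.7, 227 and 228 CPM in the untreated libraries. The lowest lenvatinib value lay well above the highest untreated one. The fold change was 1.33 (0.42 ± 0.03 on the log2 scale, adjusted p = 6.89e-16).

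Anxa2 encodes the annexin that pairs with S100a10 at the plasma membrane, where the complex binds plasminogen activators, and it is a partner of dysferlin in muscle repair. Its row spans 69360902 to 69399077 on chromosome 9. Anxa2 had 636, 619 and 603 CPM with lenvatinib, against 511, 530.4 and 507 CPM without it. All lenvatinib libraries were above all untreated ones, and the fold change was 1.20 (0.26 ± 0.03, adjusted p = 2.87e-10).

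Anxa6 encodes the largest annexin, built of a duplicated annexin core, which forms a cap over lesions of muscle fibers. It lies on chromosome 11 from 54869934 to 54924271. Anxa6 was at 808, 849 and 849.6 CPM in lenvatinib libraries and at 770.4, 796 and 771 CPM in untreated libraries. The gap between the groups was narrow, but they did not overlap, and Anxa6 rose by 7.21% (0.10 ± 0.03, adjusted p = 0.00293).

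The 2 S100 genes that rose encode annexin partners. S100a10, whose protein has lost calcium binding and holds Anxa2 in a complex, had 174, 168 and 178 CPM with lenvatinib, against 157, 159 and 162 CPM without it (0.12 ± 0.03, adjusted p = 0.00204). S100a11, whose protein binds the tails of Anxa1 and Anxa2, had 277, 274 and 279 CPM with lenvatinib, against 259, 253 and 258 CPM without it (0.11 ± 0.03, adjusted p = 0.00222). In both genes every lenvatinib library was above every untreated library, and the rises came to 8.61% for S100a10 and 7.69% for S100a11.

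Of the members that fell, Anxa8 encodes a vascular anticoagulant annexin. It lies on chromosome 14 from 33807938 to 33822528. Anxa8 had 303, 303.2 and 294 CPM in lenvatinib libraries, against 335, 345 and 331 CPM in untreated libraries, with no overlap (-0.17 ± 0.03, adjusted p = 4.8e-06). Its whole row is covered by A630023A22Rik on the other strand, which had 8 to 25 counts per library. Whether counting used strand is not stated in the labels, so reads of the pair cannot be told apart.

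Anxa11 encodes an annexin with a long proline-rich tail that binds S100a6 and tethers RNA granules to lysosomes. Its row on chromosome 14 runs from 25842580 to 25887228. Anxa11 was at 273, 286 and 274 CPM with lenvatinib and at 299, 318 and 307 CPM without it. The second library of each group was the highest of its group, and the groups did not overlap (-0.15 ± 0.03, adjusted p = 5.92e-05).

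Anxa1 encodes the glucocorticoid-induced anti-inflammatory annexin that acts through formyl peptide receptors and also joins dysferlin in membrane repair. It lies on chromosome 19 from 20350792 to 20368308, and 1500015L24Rik, which covers it on the other strand, had 0 to 2 counts per library. Anxa1 had 304, 299.9 and 300.1 CPM in lenvatinib libraries, against 326, 319.6 and 322 CPM in untreated libraries. The groups did not overlap, and Anxa1 fell by 6.59% (-0.10 ± 0.03, adjusted p = 0.0040).

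S100a13 was the S100 gene that fell. Its protein takes part in the export of fibroblast growth factors that lack a signal sequence, and its row lies on chromosome 3 from 90421742 to 90431888. S100a13 had 24.8, 25.7 and 23.7 CPM with lenvatinib, against 28, 29.4 and 29.5 CPM without it. The groups did not overlap, and S100a13 fell by 14.8% (-0.23 ± 0.06, adjusted p = 0.0017).

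**Figure D2:**
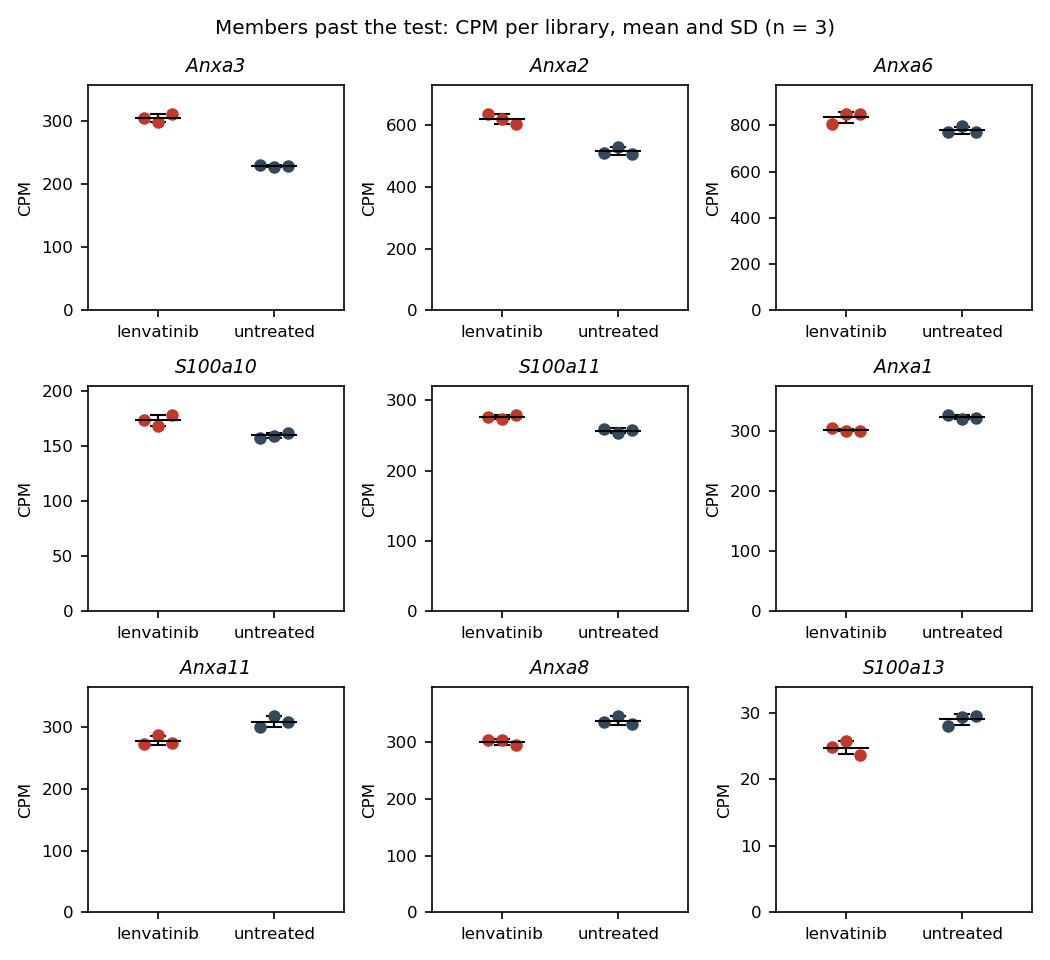
CPM per library (points, axes from 0) with mean and SD (n = 3) for the 9 members past the test, lenvatinib on the left and untreated on the right of each panel. In every panel the points of the groups are separate; the largest fold change is that of Anxa3, with 298 to 310.3 CPM in lenvatinib libraries and 227 to 229.7 CPM in untreated libraries.

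Other abundant members did not pass. Anxa5, the phosphatidylserine binder used to mark dying cells, had 196, 197 and 195.8 CPM with lenvatinib and 198, 199.9 and 193.5 CPM without it (-0.01 ± 0.03, adjusted p = 0.913). Anxa4, an annexin abundant in epithelia, had 137, 127 and 129 CPM with the drug and 127, 138 and 132 CPM without it (-0.01 ± 0.03, adjusted p = 0.82). In both genes the groups overlapped. Anxa7, known as synexin from the fusion of secretory granules, had 232, 248 and 235 CPM with lenvatinib and 244, 247 and 254 CPM without it. The second lenvatinib library reached into the untreated range, and Anxa7 did not pass (-0.06 ± 0.03, adjusted p = 0.143; adjusted p = 0.0481 without that library).

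S100a6 and S100a16 lay near the threshold, in opposite directions. S100a6, called calcyclin and induced in growing cells, had 295.3, 294 and 297 CPM with lenvatinib and 299.7, 311 and 315 CPM without it. Its groups did not overlap, yet it did not pass (-0.06 ± 0.03, adjusted p = 0.0884; adjusted p = 0.0405 without the first untreated library). S100a16, an S100 protein made in many tissues, had 92.2, 91.7 and 91.6 CPM with lenvatinib and 85.2, 87.2 and 86.8 CPM without it (0.09 ± 0.03, adjusted p = 0.0522). The groups did not overlap in S100a16 either, and its adjusted p fell below 0.05 under 4 of 17 alternative settings.

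The less abundant of the tested members had fold changes with larger SEs. S100a1, the striated muscle member that regulates the ryanodine receptor and the sarcoplasmic calcium pump, averaged 32.4 ± 1.41 CPM with lenvatinib and 34.1 ± 3.52 CPM without it (SD, n = 3 each; -0.08 ± 0.06, adjusted p = 0.402). S100a4, a binder of non-muscle myosin also named fibroblast-specific protein, averaged 19.3 ± 2.06 CPM with lenvatinib and 21.3 ± 0.43 CPM without it (SD, n = 3 each; -0.13 ± 0.07, adjusted p = 0.168). The third lenvatinib library, at 21.6 CPM, was the highest of all 6 for S100a4, and without it the fold change was -0.23 (adjusted p = 0.0212). Summed fibroblast markers, with 1 of 4 tested higher (Col1a1) and 1 lower (Pdgfra), were at 3146 to 3217 CPM with lenvatinib and 3039 to 3122 CPM without it. Most of this was Col3a1, which averaged 2540 CPM with lenvatinib and 2571 CPM without it, while Thy1 had at most 2 counts in a library. How these levels relate to the S100a4 values was not tested. Anxa9, an annexin with degenerate calcium sites, averaged 1.11 ± 0.151 CPM with lenvatinib and 1.41 ± 0.142 CPM without it (SD, n = 3 each; -0.35 ± 0.25, adjusted p = 0.313). Its row shares 71 bases with Mindy1 on the other strand, which had 1161 to 1444 counts per library. As for Anxa8, the strand setting is not stated, so reads of the shared bases cannot be told apart.

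The remaining 11 members had too few counts for a test, with at most 7 counts in a library. Anxa10, a gastric annexin, and S100a3, S100a5, S100a8, S100a9 and S100z had 0 counts in all 6 libraries, and a count of 0 allows up to 3 counts, or 0.0926 to 0.123 CPM depending on the library. Anxa13, S100a2, S100a14, S100b and S100g had 0 to 7 counts per library. S100a8 and S100a9 form calprotectin, the main cytosolic protein of neutrophils, and of 8 neutrophil markers 5 also had 0 counts in every library. The neutrophil list summed to 0 to 0.0617 CPM with lenvatinib and 0.0347 to 0.0783 CPM without it. S100b is a member best known from glia. Some of these rows share their position with other genes: S100g lies inside Ctps2, S100b overlaps Dip2a, and the rows of S100a2 and S100a3 overlap each other.

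Levels were set side by side per length, as TPM computed with the deposited feature length. S100a11 had the highest TPM of the tested members, at 1798 ± 8.16 TPM with lenvatinib and 1680.1 ± 34.1 TPM without it (SD, n = 3 each). Anxa6 followed with 884 ± 23.7 TPM with lenvatinib and 829.7 ± 10.6 TPM without it, and S100a6 came next with 600.6 ± 3.77 TPM with lenvatinib and 631 ± 13.3 TPM without it. This order depends on the deposited feature lengths, which are 511 bases for S100a11 and 1635 bases for S100a6. In CPM S100a6 was above S100a11, at 296 against 277 CPM with lenvatinib and 309 against 257 CPM without it. Anxa2 and Anxa8 changed places. Anxa2 was at 551 ± 19.7 TPM with lenvatinib (rank 4) and 462 ± 8.87 TPM without it (rank 5), while Anxa8 was at 488 ± 13.5 TPM with lenvatinib (rank 5) and 551 ± 9.51 TPM without it (rank 4). Anxa3 and Anxa11 also swapped ranks by their means, with Anxa3 ahead at 277 ± 2.8 TPM against 192 ± 6.68 TPM in lenvatinib libraries, and behind at 209 ± 2.96 TPM against 215 ± 4.63 TPM in untreated libraries. The untreated order did not hold in each library: the first had Anxa3 at 212 TPM and Anxa11 at 210.3 TPM. S100a16 and S100a1, neighbours in the order with lenvatinib, did not differ beyond their spread (156 ± 2 and 155 ± 8.33 TPM).

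Summed over all 28 members, the level was 6612 to 6709 TPM in lenvatinib libraries and 6472 to 6499 TPM in untreated libraries. Annexin rows alone took 0.319 to 0.322% of all counts with the drug and 0.304 to 0.312% without it. S100 rows took 0.0901 to 0.0922% with the drug and 0.0882 to 0.0908% without it. The annexin shares did not overlap between the groups, and the S100 shares did. That contrast holds for count shares and for summed CPM, but not for TPM. Summed as TPM, neither family overlapped, with S100 rows at 3360 to 3391 TPM with lenvatinib and 3231 to 3323 TPM without it.

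**Figure D3:**
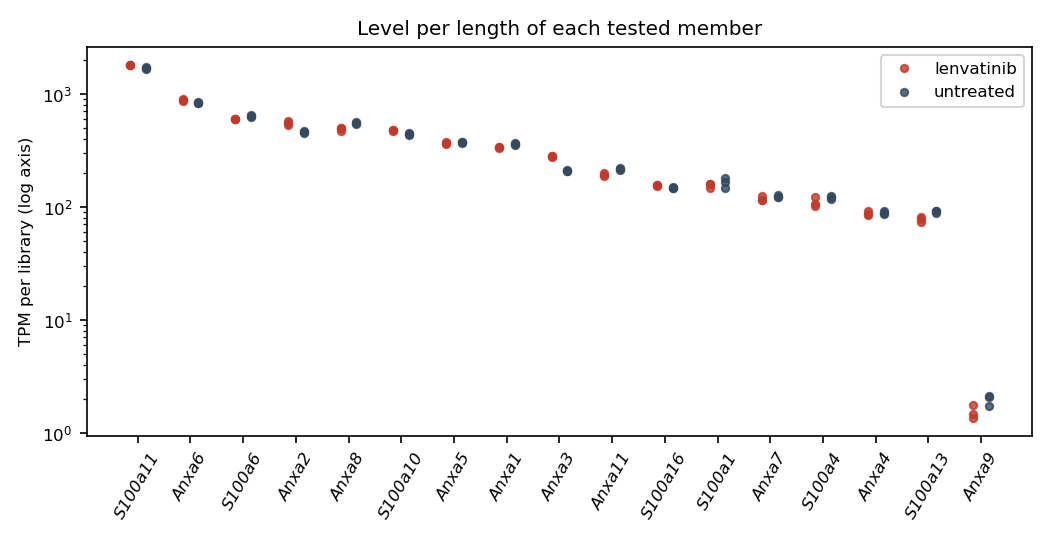
TPM per library on a log axis for the 17 tested members, ordered by their mean with lenvatinib (red, left of each pair) beside the untreated libraries (dark, right). S100a11 lies highest at 1798 TPM with lenvatinib and 1680.1 TPM without it, and Anxa9 lowest at 1.53 TPM with lenvatinib and 1.97 TPM without it.

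Proteins of the families work in pairs, so 6 TPM ratios of partner or neighbour genes were compared by exact two-sided permutation tests over libraries, in which 3 against 3 libraries allow no p below 0.1. S100a10 per Anxa2 was 0.841, 0.836 and 0.909 with lenvatinib and 0.949, 0.924 and 0.985 without it. The ratio was lower in every lenvatinib library (exact p = 0.1, 0.12 adjusted over the 6 ratios). S100a11 per Anxa1 was 5.34, 5.35 and 5.46 with lenvatinib and 4.66, 4.64 and 4.71 without it, higher in every lenvatinib library (exact p = 0.1, adjusted 0.12). As S100a11 was already higher and Anxa1 lower without overlap, this outcome was fixed and adds nothing to their fold changes. S100a10 per S100a11, neighbours on chromosome 3, was 0.264 ± 0.0049 with lenvatinib and 0.262 ± 0.00508 without it (SD, n = 3 each), and the groups overlapped (exact p = 0.7, adjusted 0.7). S100a11 per Anxa2, S100a6 per Anxa11 and S100a13 per S100a1 did not overlap between the groups (exact p = 0.1 and adjusted 0.12 each). Each ratio follows from the levels of its genes, and ratios of other gene pairs were not computed for comparison.

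Upstream sequences are shown for the called members found in the RefSeq table, so that their motifs can be read beside the fold changes. RefSeq start windows of build GRCm38.p6 were found for 22 of the 28 members, and for 14 of the 17 tested ones. Row positions as deposited do not match that build, so they cannot be set beside the positions of these windows. The motifs searched on both strands in the 250 bases before the start were those of AP-1, spelled TGANTCA, the TEAD factors, spelled GGAATG, the GC box, spelled GGGCGG, and the TATA box, spelled TATAAA, besides the SRF CArG box. No matched motifs overlap in the stretches printed, and capitals mark the matches. Anxa2 (chr9:69453433-69453682, plus strand) and S100a11 (chr3:93520246-93520495, plus strand) rose, and Anxa1 (chr19:20390672-20390921, minus strand), Anxa8 (chr14:34085729-34085978, plus strand) and Anxa11 (chr14:25841905-25842154, plus strand) fell. S100a13, which also fell, is shown with its neighbour S100a1 further on, and Anxa3, Anxa6 and S100a10 were not matched.
Anxa2: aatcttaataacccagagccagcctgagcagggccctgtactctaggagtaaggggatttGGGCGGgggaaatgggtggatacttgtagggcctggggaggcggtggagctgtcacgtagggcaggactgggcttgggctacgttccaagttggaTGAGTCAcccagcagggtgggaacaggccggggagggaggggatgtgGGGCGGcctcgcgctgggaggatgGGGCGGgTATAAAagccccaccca
S100a11: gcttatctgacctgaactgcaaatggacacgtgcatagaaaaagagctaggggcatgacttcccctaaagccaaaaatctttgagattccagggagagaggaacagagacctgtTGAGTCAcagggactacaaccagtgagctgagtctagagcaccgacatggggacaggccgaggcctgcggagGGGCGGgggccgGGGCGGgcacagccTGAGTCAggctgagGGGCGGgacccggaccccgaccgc
Anxa1: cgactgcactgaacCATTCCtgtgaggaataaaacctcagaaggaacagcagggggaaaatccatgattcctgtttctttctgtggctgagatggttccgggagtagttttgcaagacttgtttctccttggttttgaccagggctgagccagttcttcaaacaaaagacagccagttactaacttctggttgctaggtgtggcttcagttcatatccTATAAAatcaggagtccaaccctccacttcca
Anxa8: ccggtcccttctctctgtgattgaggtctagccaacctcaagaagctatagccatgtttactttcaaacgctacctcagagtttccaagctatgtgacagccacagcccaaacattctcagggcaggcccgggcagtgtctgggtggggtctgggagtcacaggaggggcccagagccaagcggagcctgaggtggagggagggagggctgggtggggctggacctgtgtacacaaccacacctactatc
Anxa11: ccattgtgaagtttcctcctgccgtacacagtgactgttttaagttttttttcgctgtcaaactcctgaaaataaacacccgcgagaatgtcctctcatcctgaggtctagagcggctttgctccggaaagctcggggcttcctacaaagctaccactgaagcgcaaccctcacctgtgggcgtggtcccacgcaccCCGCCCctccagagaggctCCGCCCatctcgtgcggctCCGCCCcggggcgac
The Anxa2 stretch holds 1 AP-1 match, 3 GC boxes and 1 TATA box, and the S100a11 stretch holds 2 AP-1 matches and 3 GC boxes. The Anxa1 stretch holds 1 TATA box and 1 TEAD match, the Anxa11 stretch holds 3 GC boxes, read on the other strand, and the windows of Anxa8 and S100a13 hold none of these motifs. GC boxes and TATA boxes thus lay before members of both directions. Over 32851 mouse windows 6.75% hold an AP-1 match, 32.7% a GC box, 12.6% a TEAD match, 12.4% a TATA box and 1.47% a CArG box. Of the 29 windows of members, 4 hold an AP-1 match (Anxa2, Anxa10, S100a11 and S100a16), 8 a GC box (Anxa2, Anxa7, Anxa11, S100a3, S100a9, S100a11 and S100a16), 3 a TEAD match (Anxa1, S100a3 and S100z), 6 a TATA box (Anxa1, Anxa2, Anxa10, S100a3, S100a4 and S100a8) and 0 a CArG box. Some members have more than 1 window. A match describes these letters only, and no binding was measured.

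Position was not used to choose the members, and 13 of the 16 S100 rows lie on chromosome 3 between 90418341 and 93471950. S100a1 and S100a13 lie head to head there, with 42 bases between their rows as deposited and 104 bases between their RefSeq starts. That shared stretch (chr3:90514331-90514434 of GRCm38.p6, plus strand, S100a13 to its right) is shown because both genes start from its ends, and it holds none of the motifs.
S100a1 to S100a13: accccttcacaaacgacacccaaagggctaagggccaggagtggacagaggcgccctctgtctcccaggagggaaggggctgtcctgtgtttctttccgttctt
Of this pair S100a13 fell (-0.23) and S100a1 did not pass (-0.08). Members of the cluster went both ways. S100a11 and S100a10, with 28792 bases between them, both rose at the far end, and S100a16, S100a4 and S100a6, between S100a13 and that end, did not pass.

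**Figure D4:**
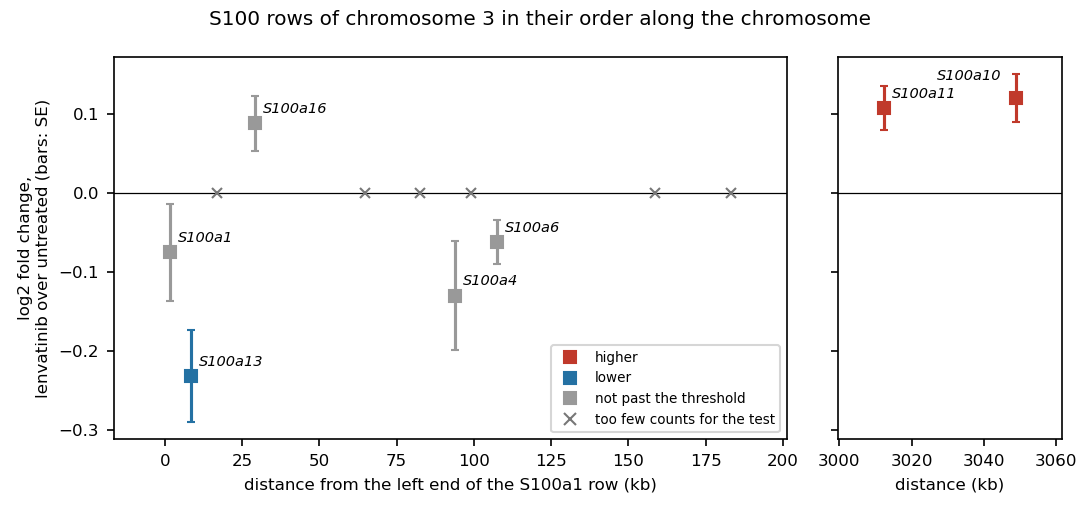
Log2 fold change, lenvatinib over untreated, with SE bars, of the S100 rows of chromosome 3 against the distance in kb from the left end of the S100a1 row; the right panel holds the distant end of the cluster, and crosses mark rows with too few counts for the test. S100a13 (-0.23) is the lower one on the left, and S100a11 (0.11) and S100a10 (0.12) are the higher ones on the right.

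The other named genes between the outermost S100 rows numbered 105, of which 9 could be tested. By edgeR 2 of the 9 fell and the other 7 did not pass, beside 28.2% of all rows tested that passed. These 2 were Sprr1a and Sprr2k, cornified envelope precursors of epidermis. Both met the count filter through the untreated libraries alone, so they could only be called lower, and their calls lend no support. Sprr1a had 2, 0 and 2 counts in lenvatinib libraries, against 52, 53 and 58 counts in untreated libraries. Its summed level was 41.1-fold lower with lenvatinib (95% exact binomial interval 15.7 to 153, counting error only). Sprr2k had 2, 0 and 1 counts with lenvatinib, against 38, 19 and 45 counts without it, 34.3-fold lower (interval 11.4 to 169). The Sprr2 genes are close copies, so reads that match several of them can be lost or counted for another copy. Keratinocyte markers summed to 8.67 to 10.4 CPM with lenvatinib and 11.7 to 13.1 CPM without it, with 1 of 3 tested lower (Dsg3) and Ivl, Krt5 and Krt1 at 0. How these levels relate to the Sprr counts was not tested.

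Partners of the families were followed in 3 lists. The share that passed was 56.5% for membrane repair partners, 52.6% for receptors and binding partners and 40% for other EF-hand calcium sensors. Over all rows tested it was 28.2%, and 40.4% for rows with a mean of at least 50 CPM. Of 23 tested membrane repair partners 6 were higher with lenvatinib, 7 were lower and 10 did not pass, with a median log2 fold change of -0.04. Capn2, the large subunit of a calpain that cuts cytoskeletal proteins at lesions, rose to 403 ± 6.29 CPM with lenvatinib, against 307 ± 6.12 CPM without it (0.39 ± 0.03). The membrane-shaping ATPase Ehd1 was at 184 ± 6.66 CPM with lenvatinib and 156 ± 5 CPM without it (0.23 ± 0.03), and the lipid scramblase Ano6 was at 213 ± 7.59 CPM with lenvatinib and 185 ± 4.46 CPM without it (0.20 ± 0.03). Cav3, the muscle caveolin, fell to 56 ± 2.34 CPM with lenvatinib, against 79.5 ± 4.96 CPM without it (-0.50 ± 0.04). Dysf, the ferlin that binds Anxa1 and Anxa2, and Trim72, which starts the repair patch, are named after their values were seen. Dysf fell to 188.5 ± 4.23 CPM with lenvatinib, against 205 ± 9.94 CPM without it (-0.12 ± 0.03, adjusted p = 0.00245), and Trim72 to 583 ± 9.36 CPM with lenvatinib, against 644 ± 7.41 CPM without it (-0.14 ± 0.03, adjusted p = 2.54e-05).

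Of 19 tested receptors and binding partners 5 rose, 5 fell and 9 did not pass, with a median of -0.02. Plat, the tissue plasminogen activator that Anxa2 binds, was at 118 ± 2.78 CPM with lenvatinib and 45.2 ± 1.91 CPM without it (1.39 ± 0.04), the largest change among the tested genes of the 3 lists. Ndrg1, a stress-induced protein, rose to 157 ± 1.08 CPM with lenvatinib, against 109 ± 1.71 CPM without it (0.53 ± 0.03). Alcam, an adhesion molecule, fell to 15.7 ± 0.714 CPM with lenvatinib, against 27 ± 2.27 CPM without it (-0.79 ± 0.07). Tpt1, a translationally controlled protein that binds S100 proteins, fell by 0.16 on the log2 scale. The formyl peptide receptor genes Fpr1, Fpr2 and Fpr3 had 0 counts in all libraries, and Ager, the S100 receptor RAGE, averaged 0.115 ± 0.0503 CPM with lenvatinib and 0.137 ± 0.0799 CPM without it, too few for a test. These 4 are named after their values were seen.

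Of 25 tested genes for other EF-hand calcium sensors 5 rose, 5 fell and 15 did not pass, with a median of 0.0074. Nucb2, a Golgi calcium binder, rose by 0.24, Efhd1, a mitochondrial calcium sensor, by 0.33 and Calu, a calcium binder of the endoplasmic reticulum, by 0.13 on the log2 scale. Pvalb, the relaxation-speeding parvalbumin of fast muscle, fell to 8.11 ± 0.481 CPM with lenvatinib, against 11.3 ± 0.578 CPM without it (-0.48 ± 0.09, adjusted p = 6.22e-05). All 3 lists held genes that rose and genes that fell.

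**Figure D5:**
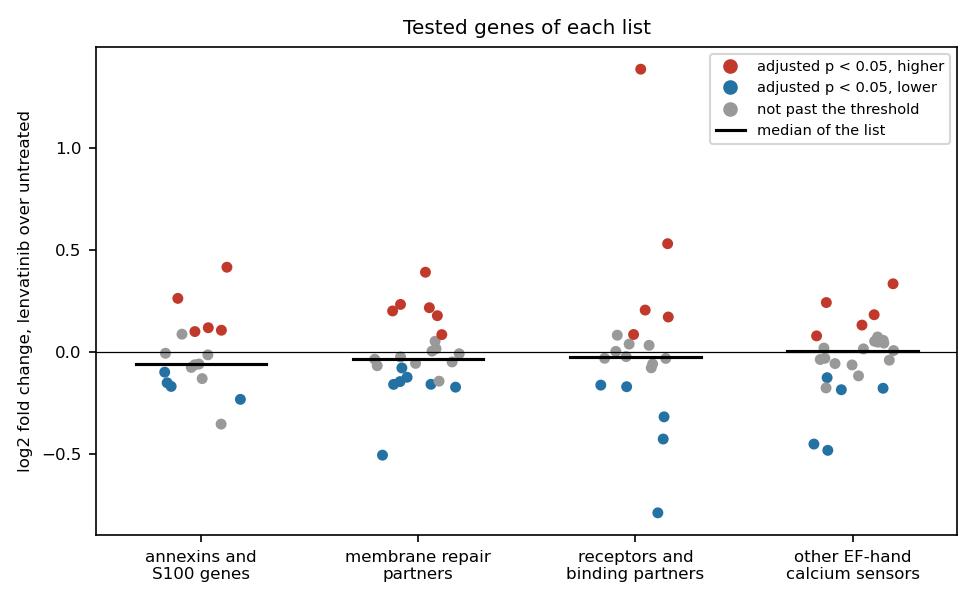
Log2 fold change, lenvatinib over untreated, of each tested gene in the annexin and S100 families and in the 3 partner lists, with the median of each list as a line and colours for calls at an adjusted p of 0.05. Medians lie between -0.06 and 0.0074, and the point at 1.39 is Plat.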

How the data were processed

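The authors deposited 1 table of whole-number read counts per gene row for 6 libraries, not normalized, with a feature length in bases, a column of another unit than counts. Per the labels' protocols, reads were aligned with Hisat2 2.0.1, and the submitters' processing notes name HTSeq 0.6.1 and mm10. The sources used here give neither strand setting nor annotation release. Positions are printed as deposited and without a build: of 28 members 0 have the same position in GENCODE M21 of mm10.

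Counts were tested with edgeR 4.0.16 in R 4.3.3 (glmQLFit, robust, then glmQLFTest; TMM; filterByExpr with minimum count 10 and minimum total 15), Benjamini-Hochberg adjusted over 14989 rows and called under 0.05. CPM use library totals times TMM factors (0.996 to 1.01), and TPM use the deposited feature length, which joins all exons and so lowers the TPM of genes with alternative exons. The limits from 0 counts and the intervals reflect counting error alone, as reads lacking molecular identifiers can be copies of the same molecule. Replicates differed beyond sampling noise (chi-square per degree of freedom 2.78 to 5.6). Alternatives were other scalings, filters and tools (DESeq2 1.42.0, limma-voom with limma 3.58.1), a threshold of 0.01, a replicate block and leaving out each library. The fit was tested on simulated data.

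Members and lists were chosen with earlier results of these data known. Genes named are all members, with the value in each library for those that passed or reached 50 CPM, and up to 4 genes per list with the smallest p. Groups and replicate numbers came from the sample titles.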

Additional observations from a re-analysis of the deposited data

How the results depend on the processing

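The 9 called members kept their direction and their call under all 17 alternatives (16 planned, and 1, without rows wider than the gene, chosen after seeing the data), with a highest adjusted p of 0.0308. Members that rose numbered 5 to 6 and those that fell 4 to 5. Among the 8 uncalled members a value passed in 7 instances. S100a16 passed with upper-quartile factors, with library totals alone, without robust estimation and without rows wider than the gene (adjusted p = 0.0342 to 0.0498). Anxa7, S100a6 and S100a4 passed once each when a library was left out. Anxa4 and Anxa5, near 0, changed sign: Anxa5 was at 0.0010 with upper-quartile factors and at -0.019 to 0.0035 when each library was left out in turn, highest without the second untreated library. Anxa4 was at -0.043 to 0.017 in the same way, and above 0 without the second lenvatinib library (0.0067) or the second untreated library. The cause was not tested. Leaving out each library in turn gave 5 risen and 4 to 5 fallen members, and 1716 to 1795 rows higher and 1902 to 2045 lower over the table.

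Libraries of the same replicate number did not deviate together (correlations 0.0217, -0.0782 and -0.00417). With 3 libraries per group this cannot settle whether the numbers mark pairs. With a replicate block 5 members rose and 4 fell, and 1952 rows were higher and 2182 lower, against 1999 and 2229 without it. Depth limits the 11 untested members, whose absence cannot be shown.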
